A study of Mus musculus with 4 samples.

Results

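The Bcl2 family holds the proteins that decide whether the outer membrane of the mitochondrion is opened during programmed cell death. The 10 genes described here (Bax, Bak1, Bok, Bcl2, Bcl2l1, Mcl1, Bid, Bad, Bcl2l11 and Bcl2l14) were taken by name, as the entries of the deposited expression table with these symbols, out of 26068 entries that name a gene. Each of the 10 symbols had 1 entry. Messenger RNA was sequenced from whole testes. The mice were males aged 24 days, with the strain given as B6D2F1, a name for the offspring of a cross between inbred strains. The crosses that led to each group are not described. There were 2 libraries from wild type mice, which the table calls control, and 2 from mice homozygous for an Adad2 knockout, which it calls null. The labels give neither the design of the knockout allele nor whether replicates came from separate animals, so p-values measure the spread among these libraries only, and part or all of it may be technical. No other allele or treatment is named for either group. Adad2 is expressed in male germ cells, and its protein carries a domain that binds double-stranded RNA. By its title the study asks about piRNAs, small RNAs of the germ line, and about the maturation of spermatids.

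In the family, effectors such as Bax and Bak form pores in the mitochondrial membrane and let cytochrome c out, and cytochrome c then starts the caspase cascade. Guardians such as Bcl2, Bcl-xL (the product of Bcl2l1) and Mcl1 hold the effectors back, and BH3-only proteins such as Bim (Bcl2l11), Bid and Bad relieve that restraint or act on the effectors directly. In the testis the family sets the number of germ cells: early waves of germ cell death need Bax, and male mice without Bax are sterile. Much of this control works on the proteins, by cleavage, phosphorylation and binding, and is not seen in transcript levels.

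Levels are given as RPKM, reads scaled to gene length and to library depth, which allows genes to be compared per length. Changes are given as differences of log2 RPKM, knockout minus wild type. Genes with a mean log2 RPKM of at least 0, which is 1 RPKM, were tested. Calls were made with limma at a Benjamini-Hochberg adjusted p under 0.05 over all 13414 genes tested. Of the 10 members 9 passed this filter, and Bcl2 did not. Depth, estimated from the value that a single read takes in the table, was 29400000 to 36900000 reads a library. Adad2 itself was at 25.2 and 22.2 RPKM in wild type replicates 1 and 2 and at 13.2 and 9.86 RPKM in knockout replicates 1 and 2, a log2 change of -1.05 (SE 0.16, limma adjusted p = 0.00604). It missed the threshold without wild type replicate 1 (limma adjusted p = 0.143) or 2 (limma adjusted p = 0.0838; range over all alternatives 3.73e-18 to 0.143). The libraries carried transcripts of testis cells throughout, such as Ldhc of spermatocytes at 9.80 to 10.05 log2 RPKM and the Sertoli cell gene Clu at 7.76 to 8.16 log2 RPKM. Haemoglobin stood apart in wild type replicate 1, where the 5 red blood cell genes summed to 105.6 RPKM against 38.5 to 50.5 RPKM in the other libraries.

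Bcl2l14 was the one member called as changed. It was lower in the knockout, 3.06-fold. No member was called higher, and the other 8 tested members had log2 changes between 0.08 and 0.50. Over all genes tested, 7.15% were called lower and 1.22% higher, 8.36% in either direction, so 1 lower member of 9 is close to the background share. Without wild type replicate 1, limma called 0 genes of the whole table (2357 at an unadjusted p under 0.05), and Bcl2l14 was not called then either.

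**Figure D1:**
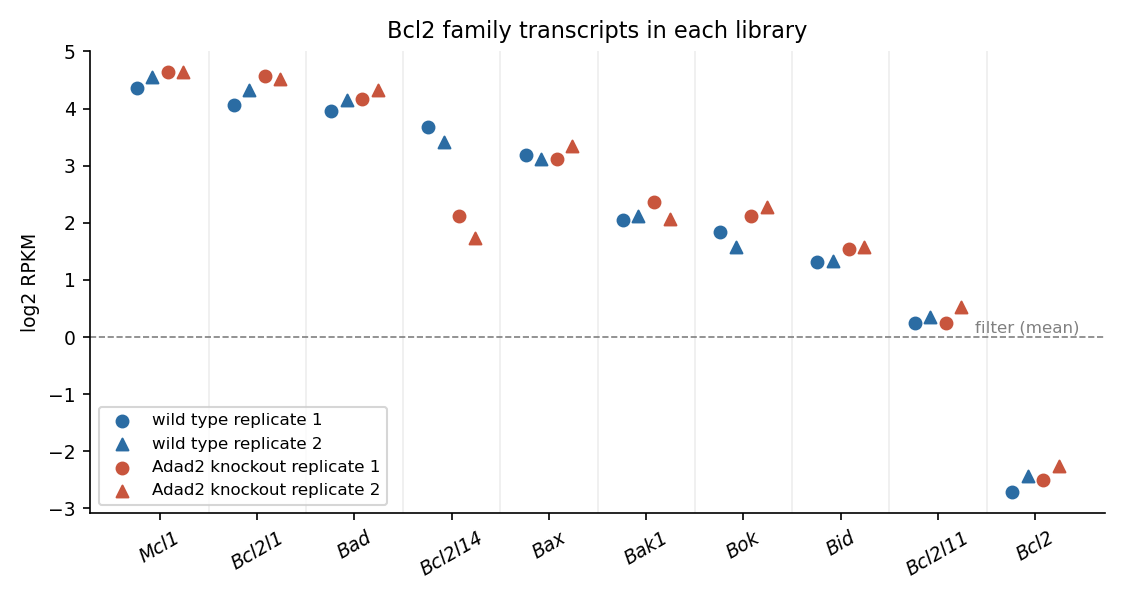
Level of each Bcl2 family member (log2 RPKM, vertical axis) in the 4 libraries, ordered by the wild type mean; blue points are wild type, red points knockout, circles replicate 1 and triangles replicate 2. Bcl2l14 is the member whose knockout points lie far below the wild type points, and Bcl2 lies below the filter line at 0.

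The starts of Bcl2l14 are shown because it was the called member, beside those of Mcl1, the most abundant member, and Bok, the tested member with the largest positive change. These last 2 were chosen after their values were seen. Each run is the 250 bases before an annotated transcript start from RefSeq (GRCm38.p6, while the expression table is in mm9), 5′ to 3′ on the gene's strand, with CpG dinucleotides in capitals. RefSeq windows were found for 10 of the 10 members, 15 windows in all.
Bcl2l14 first start (chr6:134396079-134396328, plus strand): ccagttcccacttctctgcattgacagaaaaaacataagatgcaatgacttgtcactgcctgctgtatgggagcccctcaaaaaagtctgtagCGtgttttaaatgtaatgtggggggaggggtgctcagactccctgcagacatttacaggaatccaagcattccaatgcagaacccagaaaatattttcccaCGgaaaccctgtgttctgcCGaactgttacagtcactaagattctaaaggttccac
Bcl2l14 second start (chr6:134414178-134414427, plus strand): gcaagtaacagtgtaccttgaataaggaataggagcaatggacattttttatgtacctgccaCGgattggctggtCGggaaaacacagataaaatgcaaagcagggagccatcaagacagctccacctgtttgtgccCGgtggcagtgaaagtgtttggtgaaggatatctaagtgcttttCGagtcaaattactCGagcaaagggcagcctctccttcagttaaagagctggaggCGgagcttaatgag
Bok (chr1:93685325-93685574, plus strand): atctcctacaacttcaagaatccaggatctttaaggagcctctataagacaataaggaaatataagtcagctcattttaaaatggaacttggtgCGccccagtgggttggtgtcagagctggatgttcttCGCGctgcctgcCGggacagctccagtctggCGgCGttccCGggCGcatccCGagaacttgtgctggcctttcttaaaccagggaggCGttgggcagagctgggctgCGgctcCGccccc
Mcl1 (chr3:95658471-95658720, plus strand): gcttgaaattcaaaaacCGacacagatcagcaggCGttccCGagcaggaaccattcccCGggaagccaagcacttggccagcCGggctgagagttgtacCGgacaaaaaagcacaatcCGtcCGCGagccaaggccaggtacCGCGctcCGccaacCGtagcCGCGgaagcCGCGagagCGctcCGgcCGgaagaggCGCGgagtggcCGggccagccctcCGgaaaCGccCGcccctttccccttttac
The Bcl2l14 windows held 3 and 6 CpG dinucleotides, while the Bok window held 12 and the Mcl1 window 26. Of all 32851 promoter windows of this length, 37.8% held at most 3 and 53.7% at most 6, with a median of 6. For 8 of the 9 other members every window held more CpG than either Bcl2l14 window. The exception was Bcl2l1, with 0, 11 and 12 in its 3 windows. The windows were also searched on both strands for the cAMP response element TGACGTCA, bound by CREM in spermatids, and for its shorter core TGACG, which the full element contains. The full element was in 1.55% of all windows and in 0 of the 15 member windows. The core was in 17.8% of all windows and in 1 member window, that of Bcl2, where it starts 107 bases before the transcript start. Neither motif was in the Bcl2l14 windows, which says only that these letters are not in these 250 bases. The gene-level values do not show which of the Bcl2l14 starts was used.

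Bcl2l14 encodes Bcl-G, a protein with Bcl2 homology that is found in testis and whose part in cell death is less settled than that of the other members. The gene (ENSMUSG00000030200) lies at chr6:134346336-134388754 on the plus strand in mm9, and its span overlaps no other entry of the table. It was at 12.7 and 10.6 RPKM in wild type replicates 1 and 2, and at 4.34 and 3.33 RPKM in knockout replicates 1 and 2. Both knockout libraries lay below both wild type libraries, as in 16.8% of all genes tested, and the knockout pair was the more spread of the groups on the log2 scale. The group means were 3.54 ± 0.18 and 1.93 ± 0.27 log2 RPKM (SD, n = 2 each), a change of -1.61 (SE 0.16, 95% confidence interval -1.98 to -1.25, limma adjusted p = 0.000855). In the order of changes it stood at 430 from the most lowered of the genes tested, and 3.20% of these had a more negative change. An estimated 400.3 to 1606 reads a library stood behind these values, so counting error was small beside the difference. Without wild type replicate 1 the change was -1.49 and missed the threshold (limma adjusted p = 0.0729, range over all alternatives 1.64e-35 to 0.0729).

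Transcripts that mark spermatids were lower in the same libraries. The names of the marker lists do not show which germ cell stages were present in these mice aged 24 days. These lists were chosen with earlier results of the data known, so the counts below are description only. All 10 elongating spermatid markers had both knockout libraries below both wild type libraries, as did 16.8% of all genes tested. Of the 10, 9 were called lower, beside 7.15% of all genes tested. The 10 summed to 1077 and 1015 RPKM in wild type replicates 1 and 2 against 139.4 and 84.4 RPKM in knockout replicates 1 and 2. Their log2 changes ran from -5.39 to -2.15, with a median of -3.71. The 2 markers of each spermatid list with the highest mean log2 RPKM over the 4 libraries are named by rule. Since that mean includes the knockout, it favours markers that were lowered least. Smcp, a protein of the sperm mitochondrial capsule, went from 7.13 ± 0.13 to 4.98 ± 0.45 log2 RPKM (SD, n = 2 each, limma adjusted p = 0.0029). Odf1, an outer dense fibre protein of the sperm tail, went from 6.41 ± 0.13 to 4.25 ± 0.44 log2 RPKM (limma adjusted p = 0.00272). At the other end, named after their values were seen, the protamine gene Prm1 fell 39.2-fold (limma adjusted p = 0.00916) and Tnp1, a transition protein of spermatid chromatin, 32.7-fold (limma adjusted p = 0.01). Tnp2 had the largest change, -5.39, and was not called (limma adjusted p = 0.0761). The 8 round spermatid markers in the table summed to 267.2 and 247.7 RPKM against 122.5 and 99.4 RPKM. All 8 had lower values in the knockout, and 6 were called lower, again beside 7.15% of all genes tested. Their log2 changes ran from -3.44 to -0.22, with a median of -1.87. The 2 named by rule had the smallest changes of the list. Actl9, an actin-like protein, was 1.92-fold lower (limma adjusted p = 0.00128), whereas Acr, the acrosomal protease acrosin, was at 5.80 ± 0.10 and 5.58 ± 0.05 log2 RPKM (SD, n = 2 each, limma adjusted p = 0.221). Tssk6, a kinase of spermatids named after its values were seen, fell 10.8-fold (limma adjusted p = 4.18e-05). All 18 of these markers had reads in every library, the fewest being an estimated 9 reads.

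Set against its own wild type mean, Bcl2l14 was at 109% and 91.0% in the wild type libraries and at 37.1% and 28.5% in the knockout libraries. The summed round spermatid markers were at 104% and 96.2%, then 47.6% and 38.6%. The elongating spermatid markers fell further, to 13.3% and 8.07%. Both summed lists, Bcl2l14 and also Adad2 had their highest value in wild type replicate 1 and their lowest in knockout replicate 2. This order did not hold for every marker: Prm1, Tnp1, Acr and Actl9 were highest in wild type replicate 2. Markers of pachytene spermatocytes, the stage before the meiotic divisions, summed to between 92.7% and 107% in all 4 libraries, a sum led by Ldhc. Of the 8 pachytene markers 1 was called lower, the glycolytic gene Pgk2 (log2 change -0.62, limma adjusted p = 0.0216). The part of spermatid numbers in the lower Bcl2l14 level was not tested, and in whole-testis RNA fewer cells of a type and less RNA per cell cannot be told apart.

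**Figure D2:**
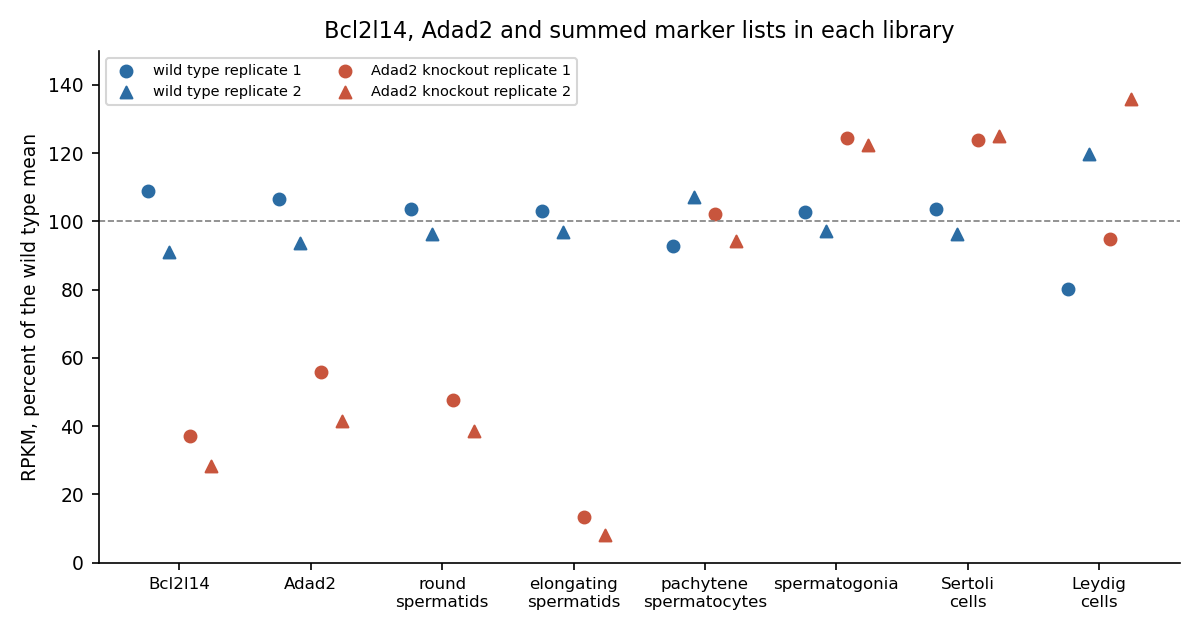
RPKM of Bcl2l14, of Adad2 and of 6 summed marker lists in each library, as a percentage of the mean of the wild type libraries (vertical axis from 0); blue points are wild type, red points knockout, circles replicate 1 and triangles replicate 2. Bcl2l14, at 37.1% and 28.5% in the knockout, lies between the round spermatid markers (47.6% and 38.6%) and the elongating spermatid markers (13.3% and 8.07%).

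Among the pore-forming effectors, Bax and Bak1 overlapped between the groups and were not called. Bax (chr7:52717065-52722268, minus strand, mm9) was at 9.16 and 8.68 RPKM in the wild type libraries and at 8.70 and 10.2 RPKM in the knockout libraries. The groups overlapped, and the log2 change was 0.08 (95% confidence interval -0.19 to 0.35, limma adjusted p = 0.645). Bak1 (chr17:27156755-27165954, minus strand) stood at 4.16 and 4.34 RPKM against 5.13 and 4.19 RPKM, again with overlapping groups (log2 change 0.12, 95% confidence interval -0.19 to 0.44, limma adjusted p = 0.549). Its whole span lies inside that of Ggnbp1, a germ cell gene on the other strand at 6.06 to 6.38 log2 RPKM. The use of strand in counting is not given in the sources used here, so reads of the pair may not have been told apart. The intervals of Bax and Bak1 do not show that the levels were equal.

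Bok, an effector named for its discovery in the ovary and active without the help of the other members, showed the largest positive difference of the family. At chr1:95582271-95592339 on the plus strand, it was at 3.56 and 2.99 RPKM in wild type and at 4.37 and 4.86 RPKM in the knockout. Both knockout libraries lay above both wild type libraries, which held for 46.4% of all genes tested. The log2 means were 1.71 ± 0.18 and 2.20 ± 0.11 (SD, n = 2 each), a difference of 0.50 (SE 0.14, 95% confidence interval 0.17 to 0.83) that missed the threshold (limma adjusted p = 0.0772). It passed without knockout replicate 1 (log2 change 0.58, limma adjusted p = 0.0179, range over all alternatives 0.00142 to 0.273), which leaves a lone knockout library. Of the genes tested, 97.4% had a smaller or more negative change than Bok. An estimated 197.7 to 265 reads a library stood behind it.

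Guardian transcripts were the most abundant of the family, apart from Bcl2. Mcl1, a short-lived protein that many cells need for survival, had the highest level: 20.7 and 23.6 RPKM in wild type and 24.9 and 25.0 RPKM in the knockout. Its locus is chr3:95462643-95467099 on the plus strand. The groups did not overlap, with the knockout higher, as in 46.4% of all genes tested. The log2 change of 0.18 (95% confidence interval -0.07 to 0.43, limma adjusted p = 0.300) was close to the median of 0.14 over all genes tested.

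Bcl2l1, whose main product Bcl-xL protects early germ cells, was at 16.7 and 20.1 RPKM in wild type and at 23.8 and 23.0 RPKM in the knockout (chr2:152593052-152657464, minus strand). Both knockout libraries were above both wild type libraries, as in 46.4% of all genes tested. The log2 change was 0.35 (SE 0.12, 95% confidence interval 0.08 to 0.62). The difference was not past the threshold (limma adjusted p = 0.12). Values per gene do not separate Bcl-xL from Bcl-xS, the splice form with the opposite activity.

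Bcl2, the founding member, had the lowest level of the family. At chr1:108434755-108610851 on the minus strand, it stood at 0.152 and 0.185 RPKM in wild type and at 0.177 and 0.208 RPKM in the knockout, an estimated 42.0 to 62.4 reads a library. The groups overlapped, and Bcl2 was left untested by the filter. In the fit without a filter its log2 change was 0.20 (limma adjusted p = 0.877). An entry on the other strand, D630008O14Rik, lies within its span.

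The BH3-only members showed small differences. Bad (chr19:7016351-7026388, plus strand), which is switched off by phosphorylation when survival signals are present, was at 15.5 and 17.7 RPKM in wild type and 18.1 and 20.2 RPKM in the knockout. Bid (chr6:120841948-120866871, minus strand), which caspase 8 cleaves to link death receptors to mitochondria, was at 2.50 and 2.53 RPKM against 2.91 and 2.98 RPKM. Neither gene's groups overlapped, with the knockout higher, as in 46.4% of all genes tested. The log2 changes of 0.20 for Bad (95% confidence interval -0.06 to 0.47, limma adjusted p = 0.274) and 0.23 for Bid (95% confidence interval -0.09 to 0.55, limma adjusted p = 0.295) missed the threshold. Parts of both genes overlap neighbours on the other strand: 590 bases with Gpr137 for Bad and 913 bases with Bcl2l13 for Bid.

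Bcl2l11, which encodes Bim, an activator induced when growth factors are withdrawn, lies at chr2:127951774-127988283 on the plus strand. It was at 1.19 and 1.28 RPKM in wild type and 1.19 and 1.44 RPKM in the knockout. Its groups overlapped, and its interval was the widest of the tested members (log2 change 0.09, 95% confidence interval -0.38 to 0.55, limma adjusted p = 0.776). Bcl2l11 had the lowest level of the tested members, just above the filter, with an estimated 288.7 to 378.8 reads a library.

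**Figure D3:**
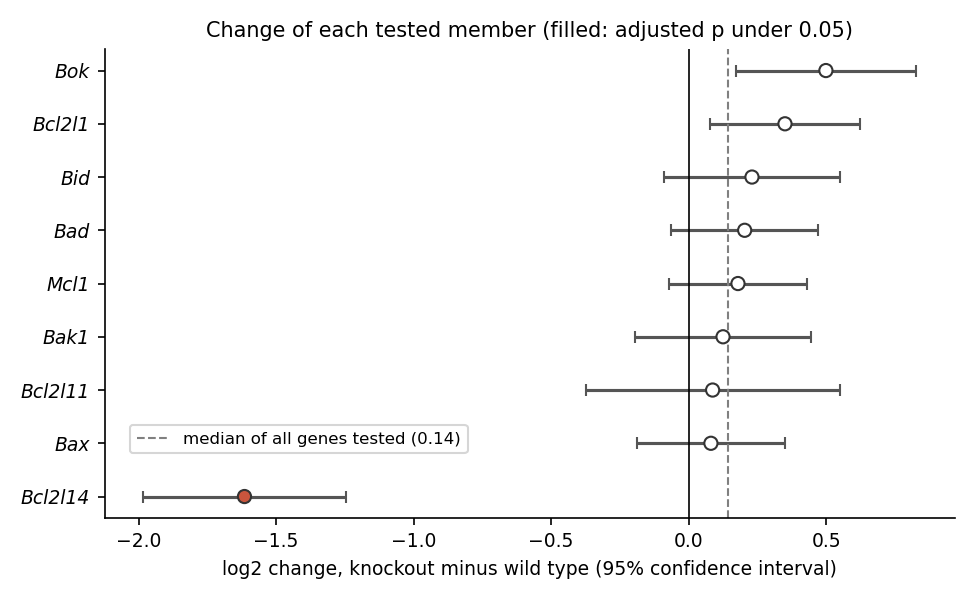
Change in log2 RPKM (horizontal axis, knockout minus wild type) of the 9 tested members with 95% confidence intervals from limma; the filled point passed the threshold and the dashed line is the median of all genes tested, 0.14. The interval of Bcl2l14 runs from -1.98 to -1.25, and those of Bok and Bcl2l1 lie above 0 without passing after adjustment.

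Read over the family, 8 of the 9 tested members had a change above 0, beside 71.8% of all genes tested. Relative to the median of all genes tested, 5 of the 9 lay above it and 4 below, the latter being Bcl2l14, Bax, Bak1 and Bcl2l11. The family's median change was 0.18, beside 0.14 over all genes. Knockout libraries lay wholly above wild type for 5 members (Mcl1, Bcl2l1, Bad, Bok and Bid) and wholly below for 1, against 46.4% and 16.8% of all genes tested. At an unadjusted p under 0.05, 2 tested members were higher and 1 lower, against 15.6% and 11.3% of all genes tested. Signs this close to 0 were not stable: Bax and Bcl2l11 turned negative without knockout replicate 2 (-0.035 and -0.052), and Bak1 did so without knockout replicate 1 (-0.021).

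**Figure D4:**
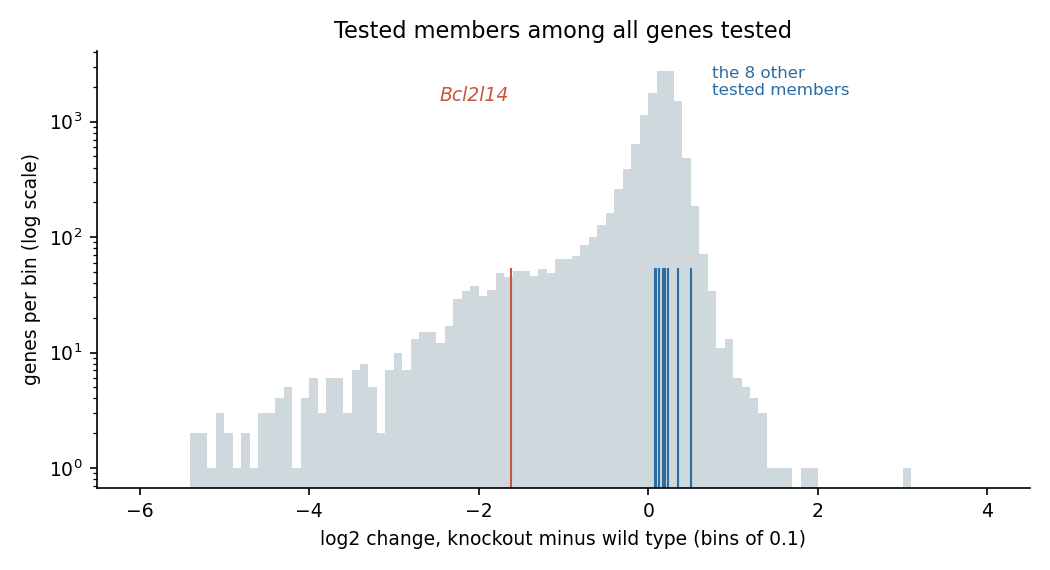
Number of genes per bin of 0.1 (vertical axis, log scale) by log2 change, knockout minus wild type, over the 13414 genes tested, with the 9 tested members as vertical lines. Bcl2l14 (red) stands in the long tail of lowered genes, and the 8 others (blue, 0.08 to 0.50) stand in the main peak.

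The order of levels in wild type testis, per length, was Mcl1, Bcl2l1, Bad, Bcl2l14, Bax, Bak1, Bok, Bid, Bcl2l11 and Bcl2. Means ran from 22.1 ± 2.07 RPKM for Mcl1 to 0.168 ± 0.023 RPKM for Bcl2 (SD, n = 2). Bcl2l1 and Bad, neighbours in this order, overlapped between libraries, while the libraries of every other pair of neighbours lay apart. The largest step was the last, 2.88 on the log2 scale between Bcl2l11 and Bcl2. In the knockout Bcl2l14 moved from place 4 to place 7, behind Bax, Bak1 and Bok, and the libraries of Bak1 overlapped there with those of Bok and of Bcl2l14. The other 9 members kept their order among themselves.

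Textbook pairs of a killer and its guardian were compared within each library as differences of log2 RPKM. Bax lay 5.92 and 5.56 above Bcl2 in wild type replicates 1 and 2 and 5.62 and 5.62 above it in the knockout. Against Bcl2l1, Bax was lower in every library, by -0.87 and -1.21 in wild type and -1.45 and -1.17 in the knockout. Bak1 stood -2.31 and -2.44 from Mcl1 in wild type and -2.28 and -2.58 in the knockout. In each of the 3 pairs the groups overlapped. For groups of 2 the smallest two-sided p of an exact permutation test is 0.33, so none was used.

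Patterns over the 4 libraries most like those of Bcl2l14 and Bok were looked up among all tested genes outside the lists, by the distance between log2 values centred on each gene's own mean. Closest to Bcl2l14 were Pkd1l3 (distance 0.06), Tmem190 (0.06) and Ccdc63 (0.07), with log2 changes of -1.62, -1.66 and -1.55. Nearest to Bok were Sspn (0.01), Wfdc9 (0.03) and Trim8 (0.04), with log2 changes of 0.50, 0.52 and 0.52. The similar changes follow from this choice, since the distance is taken over the same 4 libraries.

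Other relatives of the family gave no call. Of 18 relatives, 9 were tested and 0 passed in limma (3 had an unadjusted p under 0.05, all with a positive change), with a median change of 0.22. Over all genes tested 8.36% were called, and 15.6% were higher at an unadjusted p under 0.05. Bik, a BH3-only protein of the endoplasmic reticulum, was at 1.57 ± 0.13 and 2.06 ± 0.09 log2 RPKM (SD, n = 2 each, limma adjusted p = 0.0712). It passed without knockout replicate 1 (limma adjusted p = 0.0314, range over all alternatives 0.00241 to 0.259). Bnip2, a Bcl2-interacting protein, was at 3.36 ± 0.07 and 3.64 ± 0.03 log2 RPKM (limma adjusted p = 0.135).

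Partners and regulators of the family, such as the VDAC channels of the outer membrane, p53, FOXO factors and enzymes that set the stability of Mcl1, were also without a call. Of 20 genes 18 were tested, 0 passed in limma and 5 had an unadjusted p under 0.05, all higher, beside the same 8.36% and 15.6% of all genes. The median change was 0.20. Fbxw7, a ubiquitin ligase subunit that marks Mcl1 for destruction, was at 2.62 ± 0.09 and 2.94 ± 0.04 log2 RPKM (limma adjusted p = 0.118). Ywhaz, a 14-3-3 protein of the kind that binds phosphorylated Bad, was at 4.41 ± 0.09 and 4.72 ± 0.04 log2 RPKM (limma adjusted p = 0.122).

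Downstream came cytochrome c, the apoptosome, caspases and their inhibitors, with 18 of 19 genes tested and a median change of 0.27. Of these, 1 was called higher and 0 lower (6 higher and 0 lower at an unadjusted p under 0.05). Of all genes tested 1.22% were called higher and 7.15% lower (15.6% and 11.3% at an unadjusted p under 0.05). Birc2, an inhibitor of apoptosis protein with ubiquitin ligase activity, was at 26.6 and 26.3 RPKM in wild type and at 37.8 and 36.0 RPKM in the knockout. It rose 1.39-fold (log2 change 0.48, SE 0.10, 95% confidence interval 0.25 to 0.71, limma adjusted p = 0.022), with both knockout libraries above both wild type libraries, as in 46.4% of all genes tested. The call was lost without a filter (limma adjusted p = 0.0564), without trend and robust estimation (limma adjusted p = 0.0575), and without wild type replicate 1 (0.124), wild type replicate 2 (0.106) or knockout replicate 1 (0.0782). Over all alternatives its adjusted p ranged from 0.00102 to 0.124 in limma. The death receptor arm had 5 of 9 genes tested and 0 passing in limma, with 1 higher at an unadjusted p under 0.05, as were 15.6% of all genes. There, Tnfrsf1a, a receptor for tumour necrosis factor, was at 2.88 ± 0.04 and 3.17 ± 0.08 log2 RPKM (limma adjusted p = 0.131). Fadd, an adaptor of death receptors, was at 0.72 ± 0.14 and 0.88 ± 0.004 log2 RPKM (limma adjusted p = 0.540).

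Over these 4 lists 45 of 50 tested genes had a change above 0 and 33 had knockout libraries wholly above wild type, against 71.8% and 46.4% of all genes tested. In the same libraries the summed markers of Sertoli cells, the support cells of the tubule, were at 104% and 96.3% of their wild type mean in wild type and at 124% and 125% in the knockout. Summed spermatogonial markers were at 103% and 97.3% against 124% and 122%. Clu led the Sertoli sum and Uchl1 the spermatogonial sum. Of 9 Sertoli and 6 spermatogonial markers tested, 0 passed in limma (7 and 3 at an unadjusted p under 0.05, all higher, beside 15.6% of all genes), and all had a change above 0. Below the filter, the spermatogonial marker Gfra1 was lower in both knockout libraries (log2 change -0.33), and Nanos3 was higher in both (0.27). The part of these cell types in the small positive differences of the apoptosis genes was not tested.

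**Figure D5:**
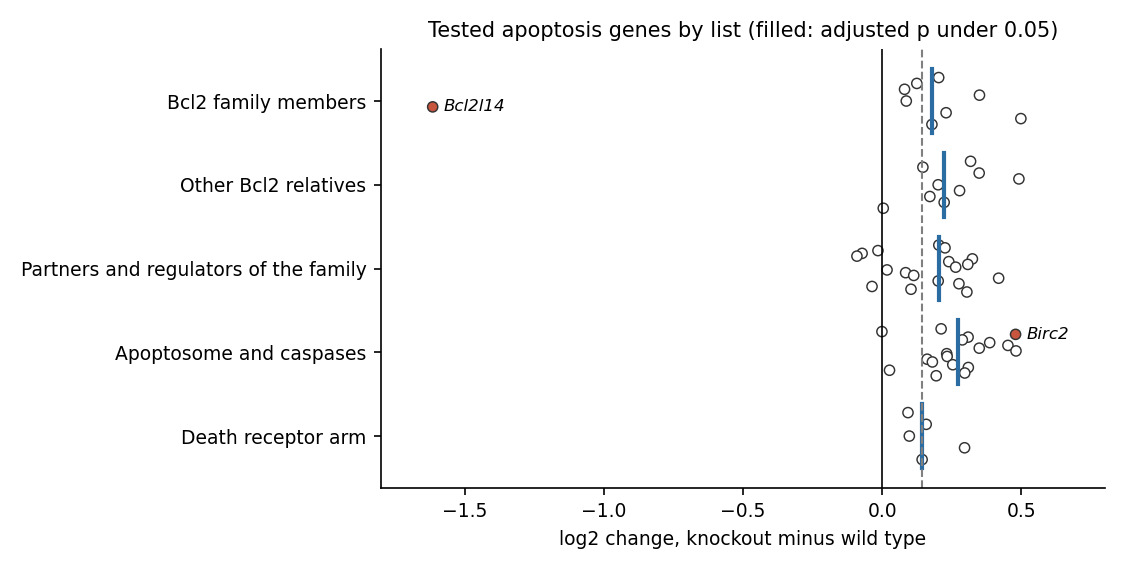
Log2 change (horizontal axis, knockout minus wild type) of each tested gene in the Bcl2 family and in 4 further apoptosis lists; filled points passed the threshold, blue bars are list medians and the dashed line is the median of all genes tested. Bcl2l14 (-1.61) and Birc2 (0.48) are the filled points.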

How the data were processed

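RNA sequencing libraries came from whole testes, 2 libraries of wild type and 2 of Adad2-knockout mice, made with a TruSeq kit per the labels' protocols. Per the submitters' processing notes, bcl2fastq 2.17.1.14 and Bowtie2 were used with mm9. How reads were counted, by which annotation and strand, was not given in the sources used here. The authors deposited log2 RPKM values per gene, and columns were matched to samples by group and number. Of 26127 entries, 59 (0.226%) name no gene and were left out. Genes without reads carry 0.9 of a read, and single-exon genes whose lengths matched Gencode M21 gave the depth: all their low values, up to 10 reads, were whole within 2%. Reads per gene are estimates from Gencode exon lengths.

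Tests used limma 3.58.1 in R 4.3.3 without pairing, two-sided, with a mean-variance trend and robust variances (statmod 1.5.0), on genes with a mean log2 RPKM of at least 0, with Benjamini-Hochberg adjustment at 0.05 and no added pseudocount. The code was tested on simulated data. The members and gene lists were chosen with earlier results of these data known. Named were all members, and called genes of the other lists or else the 2 with the smallest p. From each spermatid marker list the 2 with the highest mean log2 RPKM over the 4 libraries were named. Further spermatid markers were named after their values were seen. Ldhc, Clu and Uchl1 were named for leading their sums, Pgk2 for its call, and Gfra1 and Nanos3 for lying below the filter. Markers of peritubular and endothelial cells, macrophages and Leydig cells gave 0 calls in limma (1, 0 and 1 at an unadjusted p under 0.05), as did red blood cells (0), while 1 of 8 pachytene markers was called lower. Alternatives were other filters, log2(RPKM + 1), quantile normalization, equal medians, plain limma, a replicate block, row means for repeated symbols and leaving out each library. A group left with a lone library is assumed to vary like the other. Proteins were not analysed here.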

Additional observations from a re-analysis of the deposited data

How the results depend on the processing

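Bcl2l14 kept its direction in all 12 alternatives and its call in 11, with log2 changes from -1.81 to -1.39; without wild type replicate 1 it was -1.49 (limma adjusted p = 0.0729). Leaving out 1 library at a time gave -1.81 to -1.42 for Bcl2l14, -0.035 to 0.20 for Bax, -0.021 to 0.27 for Bak1, -0.052 to 0.23 for Bcl2l11, 0.37 to 0.62 for Bok and 0.22 to 0.48 for Bcl2l1. It gave 0 to 1 members lower, 0 to 1 higher, 0 to 2 higher genes in the other apoptosis lists, and 0 to 1308 lower and 0 to 494 higher genes over the table, where the full analysis had 959 and 163. Counts also moved with a mean of at least 2 as the filter (637 lower, 2 higher apoptosis genes), no filter (97 higher genes, 0 higher and 1 lower apoptosis gene), quantile normalization (245 higher genes) and plain limma (0 higher apoptosis genes). The cause was not tested.

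With the replicate number as a block, limma called 1477 lower and 1837 higher genes, 2 higher members, Bok (0.50, adjusted p = 0.00142) and Bcl2l1 (0.35, adjusted p = 0.0139), and 15 higher genes in the other lists. The numbers do not show that samples were paired: the labels tie them to nothing, and with 2 pairs the correlation of the replicate differences (0.33 across genes) is no proof. The block leaves 1 residual degree of freedom.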

Other observations

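Members of the wider family below the filter were left out of the tests and are described here, with Fasl of the death receptor arm. Bcl2l10, a guardian best known from oocytes, was listed at the value of a gene without reads in all 4 libraries. The copies Bcl2a1a, Bcl2a1b and Bcl2a1d, guardians of blood cells, are near-identical and may share reads. If the lowest value of Bcl2a1a, found in both knockout libraries, stands for no reads, it had about 5 and 4 reads in wild type replicates 1 and 2. In the fit without a filter it was called lower (limma adjusted p = 0.0345), a call that rests on these few reads. Bmf, a BH3-only protein, was at -0.48 and -0.77 log2 RPKM in wild type and -0.02 and -0.16 in the knockout (limma adjusted p = 0.330 without a filter). Bbc3, the p53 target Puma, was at 0.34 and -0.46 against -0.17 and -0.003 log2 RPKM. Hrk, Bcl2l15 and Bnipl had log2 changes of 1.03, 0.26 and -0.55 (limma adjusted p = 0.359, 0.751 and 0.724 without a filter). They had an estimated 9.5 to 28.5, 23.5 to 37.3 and 4.99 to 14.9 reads a library. Fasl, the ligand of the death receptor Fas, was at -1.78 and -2.70 against -3.67 and -4.25 log2 RPKM (limma adjusted p = 0.145 without a filter).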
